A study of Bos indicus x Bos taurus with 11 samples.

Results

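The maternal and the paternal copy of 4641 autosomal genes were compared within each of 5 control fetuses of a cattle cross. The genes were taken from a table of 9716 genes with reads assigned to a parental allele, of which 9674 lie on chromosomes 1 to 29. A gene was included if it had at least 10 allelic reads in all 5 control libraries and a mean of at least 20 per library. The controls, labelled CON_B, were F1 hybrids from Brahman, an indicine breed (Bos taurus indicus), and Angus, a taurine breed (Bos taurus taurus), conceived by artificial insemination and labelled healthy. Skin of these fetuses, 2 females and 3 males, was taken at day 105 of gestation and grown as primary fibroblast cultures, and total RNA depleted of ribosomal RNA was sequenced with 1 library per fetus. The series also holds 6 libraries of fetuses with large offspring syndrome, which were not used here. The labels do not say which breed was the dam, and they name no reciprocal cross. A difference between the maternal and the paternal allele and a difference between the breeds therefore cannot be told apart. A preference of read mapping or read assignment for 1 copy cannot be told apart from them either, and was not tested.

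A hybrid carries one chromosome set from each breed in the same nucleus, so both copies of a gene meet the same transcription factors, hormones and culture conditions. Unequal reads from the copies are therefore commonly used to look for sequence differences near a gene that act on its own copy, such as promoter, enhancer or transcript stability variants. Genomic imprinting is a separate source of imbalance, in which a mark set in the egg or the sperm silences one parental copy of a small set of genes, many of them regulators of fetal growth. IGF2R, GRB10 and the gene cluster around KCNQ1 on chromosome 29 are known examples in cattle or other mammals.

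The control libraries held 14147031 to 19272354 expected counts in all, and 2389506 to 3904531 reads assigned to an allele. The genes compared took 93.2% to 95% of the allelic reads. Their mean depth per library had a median of 175.4 reads, and 3212 of them had a mean of 100 or more. Near the lower limit, 36 included genes had a mean of 20 to under 25 reads, and 26 genes with 10 or more reads in every library fell outside with a mean of 15 to under 20. All 19 fibroblast markers examined reached 10 CPM (counts scaled to the library total) or more in the total counts, and their summed level was 74700 to 81800 CPM per library. Summed markers of keratinocytes (3.79 to 11.9 CPM), endothelium (3.81 to 5.63, with ESAM at 0), leukocytes (4.26 to 26.2), muscle (0.311 to 0.825) and adipocytes (4.33 to 6.67) were low. Those of melanocytes and Schwann cells ran from 8.32 to 198 CPM, most of it the melanosome gene PMEL, so this sum differed between the cultures. Some of these lists were incomplete in the total counts. Entries existed for 8 of 12 keratinocyte, 7 of 9 endothelial, 7 of 10 leukocyte and 4 of 8 muscle markers. It was 4 of 9 for melanocytes and Schwann cells and 6 of 6 for adipocytes. The part of any of these cell types in an allelic ratio was not tested.

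The table itself limits which imbalances can be seen. Of 36778 pairs of an autosomal gene and a control library with allelic reads, 3 had 1 allele at 0, so a gene expressed strictly from 1 copy is not among the genes compared. Of 12226 autosomal genes at 1 CPM or more in the total counts, 4523 (37%) were among them. The sources used here do not give which sites in a gene carried the reads, exonic or intronic. In 492 of the 4641 genes (10.6%) the allelic reads exceeded the gene's expected counts, so reads from outside the counted transcripts can enter an allelic count. Genes named below to which this applies are marked as such. For 14 genes the table gives a symbol with a numbered suffix, 12 of them at another position than the same gene ID has in the total counts. Their identity is uncertain. They held 26.2% of the reads of the genes compared, and they enter the counts below but none is named.

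Most genes were read nearly equally from both copies, and the imbalances found were mostly moderate. With edgeR's quasi-likelihood test and a Benjamini-Hochberg adjusted p under 0.05 as the threshold, 491 of 4641 genes (10.6%) differed between the alleles. The maternal copy was higher in 291 (6.27%) and the paternal copy in 200 (4.31%). Such genes are referred to as called. The split between the directions depended on the scaling. With each allele's own read total as library size, 246 genes were called maternal and 270 paternal, so the maternal part of the calls fell from 59.3% to 47.7%. Without control 1, 124 genes were called paternal. In the calls of the comparison as planned, 432 (88%) leaned the called way in all 5 fetuses and 59 in 4 of 5. Over all genes, 926 (20%) leaned 1 way in all 5.

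A ratio of 2-fold or more, with the call, was found for 23 genes on the maternal side (0.496% of the genes tested) and for 10 on the paternal side (0.215%). These counts depended on the depth required. They were 13 and 5 with at least 50 reads in every library, and 27 and 22 with no minimum beyond 1 read. Of the 491 called genes, 75 had a ratio under 1.25-fold, 230 of 1.25 to under 1.5, 153 of 1.5 to under 2, 29 of 2 to under 3 and 4 of 3-fold or more. All 4 of the last class were higher from the maternal copy: IGF2R, H2AFJ, TBC1D10A (75.3% of reads maternal) and the predicted gene LOC112447358 (71.3%). The median size of the log2 ratio was 0.16 over all genes and 0.51 over the called genes. The mean maternal share (maternal reads as a percentage of a gene's allelic reads, averaged over the 5 fetuses) ran from 25.3% to 80.3%. It was 70% or more in 9 genes and 30% or less in 7.

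The share of genes called differed with depth. It was 2.51% at a mean of 20 to under 50 reads, 6.81% at 100 to under 200 and 25.5% at 1000 or more. The smallest log2 ratio called was 0.81 in the first class, 0.44 in the second and 0.12 in the third. An imbalance of 1.5-fold in the first class was thus smaller than any called there. Across genes with 100 or more reads, the log2 ratios of any 2 fetuses correlated at 0.353 to 0.4 (3212 genes), and across genes with 1000 or more reads at 0.51 to 0.684 (439 genes). These are correlations across genes, which are not independent replicates, and the fetuses share the cross and the read assignment.

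**Figure D1:**
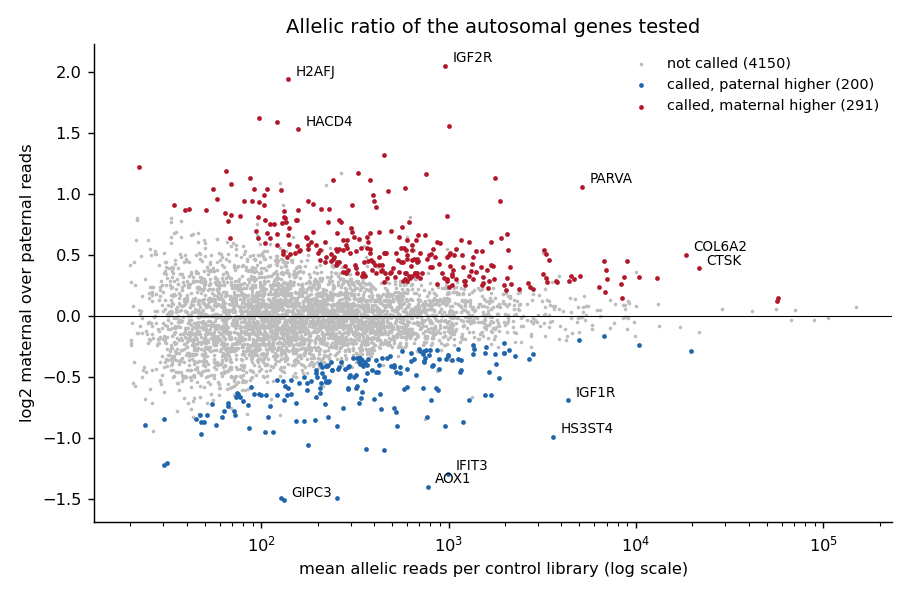
Each point is 1 of the 4641 autosomal genes, with its mean allelic reads per control library on a log scale and its fitted log2 ratio of maternal to paternal reads. The 291 genes called maternal (red) and 200 called paternal (blue) close in on a ratio of 0 as depth rises, and IGF2R stands highest at 2.05.

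IGF2R, the receptor that takes up insulin-like growth factor 2 for breakdown and is imprinted with the maternal copy active, had the largest imbalance of all genes compared. The gene lies on the plus strand of chromosome 9 (96197493–96300019 in ARS-UCD1.2, as are all coordinates here). Maternal and paternal reads were 480 and 135 in control 1, 1876 and 413 in control 2, 589 and 158 in control 3, 633 and 119 in control 4, and 325 and 88 in control 5. The maternal share was thus 78.0%, 82.0%, 78.8%, 84.2% and 78.7% in controls 1 to 5. All 5 fetuses lay far on the maternal side, with a mean of 80.3% ± 2.62 (SD, n = 5). All 5 also had reads of the paternal copy. Only 3 of 36778 pairs of a gene and a library had 1 allele at 0, so this was nearly fixed in advance. The fitted ratio was 4.15-fold (log2 2.05 ± 0.09 SE, edgeR adjusted p = 5.3e-11). Allelic reads came to 6.38% of the gene's expected counts.

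H2AFJ, a histone H2A variant gene on chromosome 5 (95136650–95137326), followed with maternal shares of 85.1%, 76.0%, 82.1%, 80.7% and 74.3% in controls 1 to 5. Its ratio was 3.82-fold (log2 1.94 ± 0.17, edgeR adjusted p = 3.86e-07) at a mean of 139 reads. Histone genes have close copies, and the sources used here do not give how reads shared with them were counted. HACD4, an enzyme of very long chain fatty acid elongation on chromosome 8 (23375120–23404578), stood at 77.6%, 78.6%, 66.3%, 75.3% and 73.3%. The 5 fetuses were all on the maternal side, as the naming rule required (log2 1.53 ± 0.16, edgeR adjusted p = 3.92e-06).

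IRX1, an Iroquois homeobox transcription factor gene on chromosome 20 (69330217–69335856), had maternal shares of 70.5%, 73.6%, 70.8%, 73.4% and 66.9%. The ratio of its copies was 2.5-fold (log2 1.32 ± 0.10, edgeR adjusted p = 2.71e-08). PYCR3, which makes proline, the amino acid collagen is rich in, lies on chromosome 14 (1101614–1108734) and stood at 71.4%, 65.8%, 67.4%, 71.2% and 70.3%. Both genes varied little between fetuses, with SDs of 2.7 and 2.49 percentage points.

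PARVA carried the most reads of any gene called with a 2-fold ratio, a mean of 5180 per library. It encodes alpha-parvin, which links integrins to the actin skeleton at focal adhesions, and lies on chromosome 15 (40168037–40347128). Its maternal shares were 67.8%, 65.5%, 68.5%, 66.8% and 69.4%, within 4 percentage points of each other. The ratio was 2.09-fold (log2 1.06 ± 0.05, edgeR adjusted p = 1.34e-10). TPT1, the abundant translationally controlled tumour protein gene on chromosome 12 (15472248–15475791), was as even between fetuses, at 69.1%, 67.8%, 68.4%, 66.4% and 71.3%. Its ratio was 2.19-fold (log2 1.13 ± 0.07, edgeR adjusted p = 2.08e-09). TPT1 and the ribosomal protein gene RPL32 (70.6% ± 7.39, log2 1.11) have processed copies elsewhere in mammalian genomes, so their counts are uncertain.

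The rest of the 12 largest maternal imbalances by the naming rule were SULT1A1, KCNK12, FBXO6 and AK4. SULT1A1 sulfates phenolic drugs and hormones. It ranged from 55.6% in control 4 to 78.5% in control 5. KCNK12, a potassium channel gene, was less variable, at 62.9% to 72.8% (log2 1.05 ± 0.10, edgeR adjusted p = 1.04e-06). FBXO6, a ubiquitin ligase subunit that recognises glycoproteins, ranged from 57.1% to 80.8%. The mitochondrial adenylate kinase gene AK4 ranged from 55.8% to 75.8%. Each lay above 50% in all 5 fetuses, which the naming rule for these 12 required.

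LOC509034, a predicted gene on chromosome 10 (86875770–86908135), stood at 76.5%, 72.8%, 74.0%, 74.9% and 75.4%, with a ratio of 2.95-fold (edgeR adjusted p = 9.49e-11). Its 1010 allelic reads per library were 1500% of its expected counts. LOC112446042, a predicted gene on chromosome 3, varied more, at 59.6%, 77.5%, 53.7%, 74.8% and 73.8% (log2 1.16 ± 0.26, edgeR adjusted p = 0.0457). Its call was lost without control 2, 4 or 5, with adjusted p of 0.0996 to 0.13.

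On the paternal side, the ratios were smaller. GIPC3, a PDZ domain protein gene linked to hearing, lies on chromosome 7 (20343708–20350057). Its maternal shares were 36.4%, 22.8%, 25%, 32.6% and 24.9%. The paternal copy gave 2.85 times the reads of the maternal copy (log2 -1.51 ± 0.18, edgeR adjusted p = 1.05e-05), although control 1 had 11 allelic reads. MTIF2, the mitochondrial translation initiation factor on chromosome 11 (37973499–37996167), stood at 20.8%, 29.3%, 26.2%, 27.5% and 25.2%. All 5 fetuses were close together (log2 -1.49 ± 0.16, edgeR adjusted p = 3.92e-06), but its allelic reads were 159% of its expected counts.

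AOX1, an aldehyde oxidase that acts on retinal and on drugs, lies on chromosome 2 (89102060–89173915). Its reads were 518 maternal and 811 paternal in control 1, 23 and 56 in control 2, 98 and 350 in control 3, 444 and 1224 in control 4, and 71 and 290 in control 5. The shares were 39.0%, 29.1%, 21.9%, 26.6% and 19.7%, all on the paternal side. The allelic reads differed widely between fetuses, while the total counts gave 149, 119, 89.2, 155 and 120 CPM in controls 1 to 5. The paternal copy was 2.63-fold higher (log2 -1.40 ± 0.19, edgeR adjusted p = 0.00199). IFIT3, an interferon-induced gene on chromosome 26 (11043982–11054721), was as uneven, at 29.5%, 29.8%, 22.2%, 32.4% and 25%. Its ratio was 2.45-fold towards the paternal copy (log2 -1.29 ± 0.10, edgeR adjusted p = 8.93e-08). Its allelic reads ran from 24 in control 5 to 2504 in control 2, and they were 135% of its expected counts.

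HS3ST4, which adds sulfate to heparan sulfate chains, carried the most reads among the 12 largest paternal ratios by the naming rule, with a mean of 3620 per library. It lies on chromosome 25 (23299463–23796747). Its maternal shares were 31.5%, 28.9%, 34.9%, 35.1% and 33.0%, so that the paternal copy gave 1.99 times the reads in spite of a range from 76 reads in control 2 to 8270 in control 3. The fitted log2 ratio was -0.99 ± 0.07 (edgeR adjusted p = 6.49e-09). AIF1L, an actin-bundling protein gene on chromosome 11 (101296724–101321912), had the most even shares of these 12, at 31.6%, 33.5%, 32.4%, 31.1% and 30.9% (log2 -1.09 ± 0.09, edgeR adjusted p = 2.58e-07).

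ARHGEF5, a guanine nucleotide exchange factor gene, ranged from 17.3% in control 2 to 40.6% in control 5. HTR1B, a serotonin receptor gene, ranged from 24.6% to 41.2%, and CCDC112, which encodes a coiled-coil protein, from 29.3% to 39.7%. TENM4, a teneurin cell surface protein gene (33.8% ± 3.89), had allelic reads at 101% of its expected counts. The scaffold protein gene IQGAP2 (35.5% ± 4.98, 452% of expected counts) and the cell adhesion gene KIRREL3 (33.7% ± 6.35, 936%) went further beyond. The predicted genes LOC514011 (25.3% ± 7.89, 131% of expected counts) and LOC510798 (32.3% ± 8.35) were also called paternal. In all of these the maternal share was under 50% in every fetus, which the naming rule required except for the predicted genes.

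**Figure D2:**
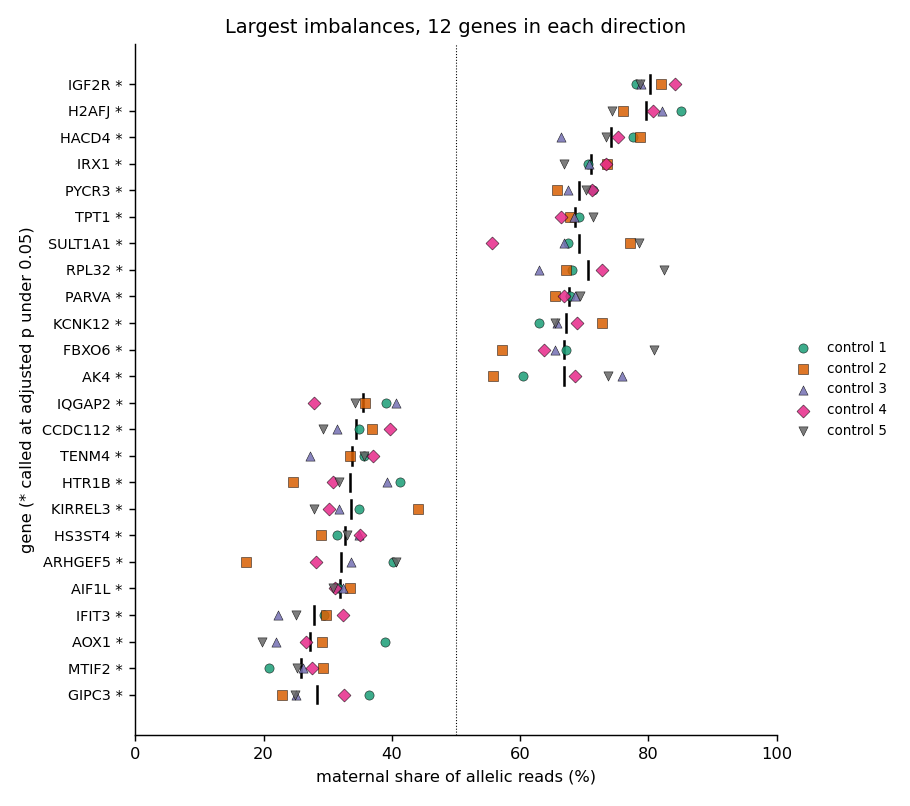
Maternal share of the allelic reads (x axis, percent) of the 24 named genes with the largest called ratios, 12 per direction. Each symbol is 1 control fetus, the bar is the mean over the 5 and the dotted line marks 50%. The naming rule required all 5 fetuses on 1 side of that line. The fetuses of PARVA and AIF1L lie within a few points of each other.

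Imprinted genes could be examined only in part. Of 30 listed genes known for expression from the maternal copy, 9 were compared, and of 33 known for the paternal copy, 2. A further 24 are imprinted in some species or tissues or differ in direction, and 11 of these were compared. Of the first list, 4 of 9 were called. IGF2R and OSBPL5 were higher from the maternal copy, and ATP10A and CD81, against the list's name, from the paternal copy. The second list had 1 call of 2 and the third 1 of 11, beside 10.6% of all genes.

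OSBPL5, a lipid transfer protein gene of the KCNQ1 region on chromosome 29 (48477356–48518350), had maternal shares of 53.1%, 54.3%, 51.5%, 57.6% and 60.1%. The difference was small (log2 0.30 ± 0.09, edgeR adjusted p = 0.04), and leaving out control 1, 2, 4 or 5 ended the call (adjusted p of 0.0646 to 0.145). CD81, a tetraspanin gene of the same region (49197099–49216812), leaned the other way, at 43.8%, 47.8%, 37.0%, 43.1% and 42.9% (log2 -0.41 ± 0.09, edgeR adjusted p = 0.00509). TSSC4, next to CD81 (56.1% ± 7.73), and NAP1L4, farther off in the region (52.3% ± 2.34), were not called.

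ATP10A, a phospholipid transporter gene on chromosome 21 (2758168–2940356), stood at 40.5%, 42.1%, 45.0%, 39.0% and 43.5%. All 5 fetuses were on the paternal side (log2 -0.46 ± 0.07, edgeR adjusted p = 0.000229), with allelic reads at 121% of its expected counts. UBE3A, the ubiquitin ligase gene near it that is imprinted in neurons, was at 45.0% ± 4.06 and was not called (edgeR adjusted p = 0.348).

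INPP5F, an inositol phosphatase gene with a paternally expressed transcript in mouse brain, was higher from the maternal copy, at 53.0%, 57.0%, 58.3%, 53.1% and 58.2%. The log2 ratio was 0.35 ± 0.09 (edgeR adjusted p = 0.017), and it was not called without control 2, 3 or 5 (0.0659, 0.0732 and 0.061). COPG2, a coatomer subunit gene next to MEST on chromosome 4, gave 40.0%, 25.6%, 34.1%, 40.5% and 39.3% (log2 -0.81 ± 0.22, edgeR adjusted p = 0.0218). It had a mean of 51.2 reads, and without control 2 or control 3 it was not called (adjusted p = 0.1 and 0.0682).

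GRB10, an adaptor protein that dampens insulin and IGF receptor signalling, was read evenly at a high depth. Its 3600 allelic reads per library gave maternal shares of 51.1%, 54.4%, 51.2%, 50.6% and 49.5% (log2 0.08 ± 0.06, edgeR adjusted p = 0.455). These reads were 297% of its expected counts. DHCR7, an enzyme of cholesterol synthesis, differed most between fetuses among the listed imprinted genes, at 35.1%, 55.8%, 59.5%, 42.5% and 66.1%, on both sides of 50%. The decorin gene DCN (45.1% ± 5.55, edgeR adjusted p = 0.0923) and RB1, a brake on the cell cycle (53.2% ± 8.05), were not called either. The same held for PHACTR2, PPP1R9A, ZFAT, TFPI2, CASD1, PON2, COMMD1 (reads at 173% of expected counts), DVL1 and TRAPPC9.

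A further 28 listed imprinted genes reached 1 CPM in the total counts without being compared. They were 8 of the maternal list, among them H19, MEG3, GNAS and CDKN1C, 13 of the paternal list, among them IGF2, PEG3, PEG10, MEST and PLAGL1, and 7 of the mixed list. PEG10 averaged 85.6 CPM and PLAGL1 75.7 CPM in the total counts. PEG10 had 0 allelic reads in the 5 fetuses, and PLAGL1 had 1 maternal and 2 paternal reads, all in control 4. A gene without a heterozygous site and a gene with 1 silent copy cannot be told apart in this table.

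**Figure D3:**
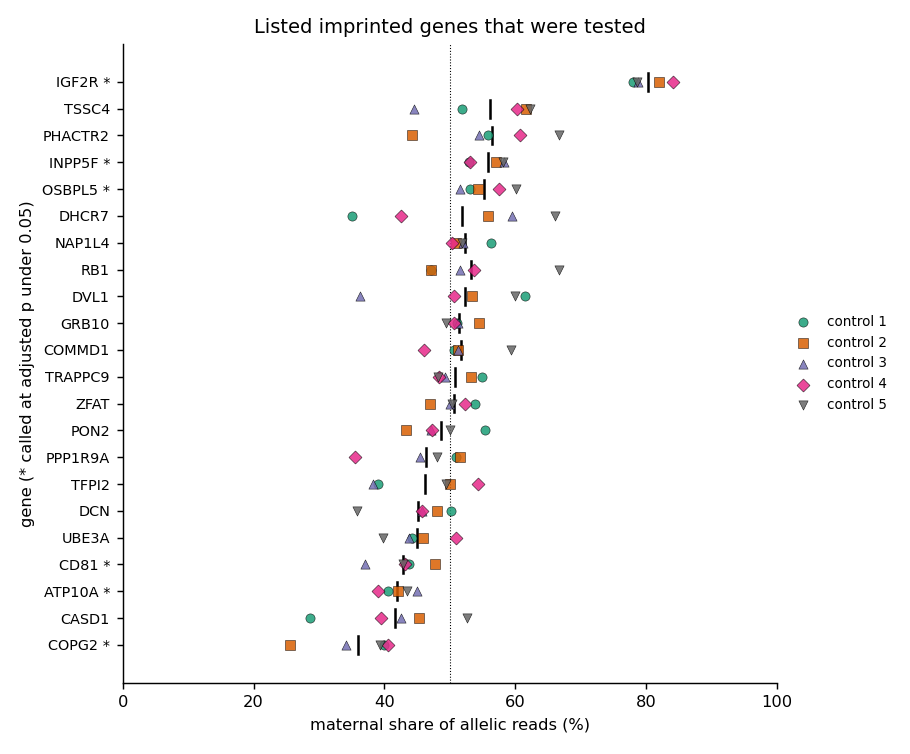
Maternal share of the allelic reads (x axis, percent) of the 22 listed imprinted genes that had enough reads, with 1 symbol per control fetus and a bar at the mean. IGF2R stands apart at 78.0% to 84.2%, while the other 21 have means between 35.9% and 56.4%.

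Among 26 genes of IGF and insulin signalling, 2 (7.69%) were called, both of them receptors, beside 10.6% of all genes. Opposite to IGF2R, the growth-promoting receptor gene IGF1R on chromosome 21 (7780293–8080968) was higher from the paternal copy. Reads of the maternal and paternal copy were 1307 and 2023 in control 1, 2778 and 3811 in control 2, 1767 and 2647 in control 3, 1590 and 3137 in control 4, and 1030 and 1781 in control 5. The maternal share was 38.3% ± 3.29 (SD, n = 5) and lay between 33.6% and 42.2%, below 50% in all fetuses. The ratio was 1.61-fold towards the paternal copy (log2 -0.69 ± 0.07, edgeR adjusted p = 1.95e-06). The median log2 ratio of the list was 0.02, beside -0.01 for all genes.

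IGF1R is also on the list of genes of human overgrowth syndromes, where 2 of 16 (12.5%) were called, beside 10.6% of all genes. The other was NFIX, a transcription factor gene on chromosome 7 (44.9% ± 2.12, log2 -0.30 ± 0.07, edgeR adjusted p = 0.00697), higher from the paternal copy in all 5. Of 20 genes of DNA methylation and imprint protection none was called by edgeR's test, DESeq2 or limma voom. At the 10.6% that edgeR's test called over all genes, a list of this size holds few calls. In this list, 2 genes had an unadjusted p under 0.05 by edgeR. The smallest p was that of the histone demethylase gene KDM1A (54.4% ± 2.77, edgeR adjusted p = 0.0726).

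The extracellular matrix is the main product of fibroblasts, and its genes were among the most deeply read. Of 15 collagen genes, 3 (20%) were called, all maternal, and 11 of the 15 leaned to the maternal copy. Over all genes 10.6% were called, with 6.27% called maternal, and 2223 of 4641 leaned to the maternal copy. Of those with 1000 or more reads, 25.5% were called, 80 maternal and 32 paternal. COL6A2, a chain of the microfibrillar collagen VI on chromosome 1 (145807051–145838162), had 18600 allelic reads per library and shares of 61.7%, 58.5%, 56.8%, 58.5% and 57.1% (log2 0.50 ± 0.04, edgeR adjusted p = 3.86e-07). COL5A1, whose product regulates the width of collagen fibrils, was at 55.3% ± 0.87, between 54.4% and 56.3% (log2 0.31 ± 0.04, edgeR adjusted p = 5.15e-05). The basement membrane gene COL4A1 was above 50% in 4 of 5 (54.9% ± 4.61, edgeR adjusted p = 0.0442). It was called in 1 of the 5 fits that each leave out a library, the one without control 3. Its adjusted p without controls 1, 2, 4 and 5 was 0.0795, 0.142, 0.241 and 0.0633.

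Of 25 other matrix genes 3 (12%) were called, again all maternal, beside 10.6% of all genes called and 6.27% called maternal. These were EMILIN1 (57.8% ± 4.23) and EMILIN2 (56.9% ± 3.92), glycoproteins of elastic fibres, and FMOD, fibromodulin. FMOD stood at 57.4%, 57.0%, 48.7%, 61.4% and 58.3%, with control 3 on the other side, and was not called without control 1 or 2 (adjusted p = 0.0604 and 0.0974). The list as a whole did not lean, with 12 genes higher from the maternal and 13 from the paternal copy.

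Matrix proteases and their inhibitors had 5 calls among 20 genes (25%), 4 of them maternal (CTSK, SERPINH1, ADAMTS5, ADAMTS1) and 1 paternal (ADAM12). The share over all genes was 10.6%, with 6.27% maternal, and rose to 25.5% at 1000 or more reads. CTSK, the collagen-degrading cathepsin K on chromosome 3 (19936975–19979718), was the most deeply read called gene with a plain symbol, at 21700 reads per library. Its shares were 56.2%, 57.3%, 56.2%, 58.5% and 55.7%, above 50% in all fetuses (log2 0.39 ± 0.04, edgeR adjusted p = 1.14e-06). SERPINH1, the chaperone that folds procollagen, was at 55.6% ± 3.19 (edgeR adjusted p = 0.00154), and the aggrecanase gene ADAMTS5 at 60.3% ± 5.03 (edgeR adjusted p = 0.00248).

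In the contractile apparatus 3 of 19 genes (15.8%) were called, beside 10.6% of all genes. The actin-bundling gene PALLD (55.1% ± 3.0, edgeR adjusted p = 0.00229) and the calponin gene CNN1 (57.3% ± 4.78, edgeR adjusted p = 0.0254) were higher from the maternal copy. ACTG2, a smooth muscle actin gene, was higher from the paternal copy (40.7% ± 6.92, edgeR adjusted p = 0.0224) but at 51.6% in control 5. Calls of both CNN1 and ACTG2 were fragile: CNN1 was not called without control 1, 2 or 5 (up to 0.174), ACTG2 without control 1, 2, 3 or 4 (up to 0.116).

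Stress and defence genes had calls in both directions. Of 17 heat shock and chaperone genes, 6 (35.3%) were called, 4 maternal (BAG3, STIP1, DNAJA4, HSP90AB1) and 2 paternal (HSPA1A, DNAJC3), beside 10.6% of all genes. HSPA1A, the inducible HSP70 on chromosome 23 (27520317–27522790), had maternal shares of 34.0%, 28.9%, 38.0%, 41.3% and 41.7% (log2 -0.79 ± 0.11, edgeR adjusted p = 0.0001). HSPA1A has a near-identical copy beside it in mammals, so its count is uncertain. Its co-chaperone genes BAG3 (57.6% ± 1.44, edgeR adjusted p = 0.00134) and STIP1 (59.1% ± 1.88, edgeR adjusted p = 0.00199) leaned to the maternal copy in all 5 fetuses.

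Of 8 interferon response genes, 3 (37.5%) were called, beside 10.6% of all genes. Beside the paternal IFIT3, SAMD9, an antiviral restriction factor gene, was maternal at 64.2%, 45.6%, 68.5%, 66.8% and 71.9% (log2 0.94 ± 0.17, edgeR adjusted p = 0.00113). Control 2 lay on the other side. The ubiquitin ligase gene TRIM25 stood at 58.9% ± 2.37 (edgeR adjusted p = 0.011), and its adjusted p was 0.0538 without control 4. None of the 3 antigen presentation genes compared was called by edgeR's test, DESeq2 or limma voom. TAPBP had the smallest p (edgeR adjusted p = 0.153), and 1 gene had an unadjusted p under 0.05.

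Glutathione and xenobiotic metabolism had 5 calls among 19 genes (26.3%), beside 10.6% of all genes. Besides SULT1A1 and AOX1, these were the maternal CAT and GSTK1 and the paternal GSTZ1. CAT, the catalase gene that removes hydrogen peroxide, on chromosome 15 (64975290–65011234), had shares of 61.0%, 65.8%, 68.1%, 66.1% and 64.4%. It lay above 60% in all 5 fetuses (log2 0.91 ± 0.11, edgeR adjusted p = 1.45e-05). The glutathione transferase genes stood on opposite sides, GSTK1 at 69.5% ± 6.64 (edgeR adjusted p = 0.000757) and GSTZ1 at 35.1% ± 7.23 (edgeR adjusted p = 0.0017). The allelic reads of GSTZ1 were 112% of its expected counts.

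Of 19 cytosolic ribosomal protein genes, 5 (26.3%) were called, 2 maternal (RPL32, RPL8) and 3 paternal (RPL13A, RPS6, RPLP2), beside 10.6% of all genes. RPL13A (42.0% ± 3.34) and RPS6 (42.8% ± 2.74) had log2 ratios of -0.46 ± 0.10 and -0.42 ± 0.09 (edgeR adjusted p = 0.00361 each), and both lay below 50% in all fetuses. Processed copies make these counts uncertain. Of 28 mitochondrial ribosomal protein genes 1 (3.57%) was called, MRPS27 (43.9% ± 2.92, edgeR adjusted p = 0.0233), and only the fit without control 3 kept that call when single libraries were left out. The others had adjusted p of 0.0529 to 0.0948.

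Nuclear genes of oxidative phosphorylation had 3 calls among 25 (12%), beside 10.6% of all genes. COX4I1, a subunit of cytochrome c oxidase, was at 64.7%, 59.8%, 61.8%, 60.6% and 65.4% (log2 0.72 ± 0.10, edgeR adjusted p = 0.000112). The complex I gene NDUFA8 was paternal and even between fetuses (41.3% ± 1.41, edgeR adjusted p = 0.0104). UQCRFS1, the Rieske protein of complex III, was maternal (55.4% ± 2.29, edgeR adjusted p = 0.0224), with reads at 129% of its expected counts. It was not called without control 3, 4 or 5 (0.0719, 0.107 and 0.0544).

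Lipid synthesis genes had 3 calls among 27 (11.1%), beside 10.6% of all genes. TM7SF2, a sterol reductase gene, was maternal (60.0% ± 2.56, edgeR adjusted p = 0.0035). The fatty acid desaturase gene FADS1 on chromosome 29 (40244825–40351549) was paternal at 39.7% ± 3.25 (log2 -0.60 ± 0.09, edgeR adjusted p = 0.000215).

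No gene was called by edgeR's test, DESeq2 or limma voom in 4 further lists. Over all genes edgeR's test called 10.6%, and at that share lists of this size hold few calls. Genes with an unadjusted p under 0.05 by edgeR numbered 2 for mitosis and replication, 4 for glycolysis and hypoxia, 4 for Wnt signalling and 0 for the listed long noncoding RNA. Among 20 genes of mitosis and replication the smallest p was that of RRM2, a ribonucleotide reductase subunit (42.6% ± 6.36, edgeR adjusted p = 0.178). Among 19 genes of glycolysis and hypoxia it was that of LDHA, lactate dehydrogenase A (39.6% ± 6.57, edgeR adjusted p = 0.0846), and among 19 Wnt signalling genes that of ROR1, a Wnt receptor (46.4% ± 2.42, edgeR adjusted p = 0.118, reads at 375% of expected counts). The single listed long noncoding RNA compared, TUG1, was at 47.9% ± 1.4 (edgeR adjusted p = 0.355). Among all 101 genes annotated as long noncoding RNA, 14 (13.9%) were called.

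In TGF-beta and BMP signalling 2 of 23 genes (8.7%) were called, beside 10.6% of all genes. FSTL1, a secreted follistatin-like protein, was paternal (44.7% ± 3.33, edgeR adjusted p = 0.013). It was not called without control 1 or 2 (0.0667 and 0.0674). ACVRL1, a type I BMP receptor gene, was maternal on average but differed widely between fetuses, at 78.6%, 73.3%, 78.9%, 56.0% and 36.4% (log2 1.04 ± 0.29, edgeR adjusted p = 0.0252). It was not called without control 1, 2 or 3 (0.131, 0.087 and 0.102), and control 5 had 11 reads.

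Of 5 HOX genes, HOXC8, a posterior patterning gene, was called paternal, at 12%, 24.3%, 48.7%, 27.6% and 33.3% with a mean of 31.4 reads (log2 -1.20 ± 0.31, edgeR adjusted p = 0.0156). Without control 1, 2 or 4 the call was lost (0.0769, 0.0576 and 0.0514). Of 6 pigment, hair and skin barrier genes, DTNBP1, which acts in melanosome formation, was called paternal (40.8% ± 2.71, log2 -0.52 ± 0.10, edgeR adjusted p = 0.00154), with reads at 205% of its expected counts. Calls made up 20% of the HOX list and 16.7% of the pigment, hair and skin barrier list, beside 10.6% of all genes. Of 11 housekeeping genes 2 (18.2%) were called, both maternal, beside 10.6% of all genes called and 6.27% called maternal. EEF2, the elongation factor (54.1% ± 1.71, edgeR adjusted p = 0.0454), was called in none of the 5 fits that each left out a library (0.0575 to 0.176). RAB7A, a late endosome GTPase (54.4% ± 3.32, edgeR adjusted p = 0.0204), was not called without control 2, 3 or 4 (up to 0.146).

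Some genes differed widely between the fetuses. Over genes with 100 or more reads, the SD of the maternal share had a median of 4.28 percentage points and a maximum of 18.4. The 8 genes with the widest spread were BPHL, CTSC, MCM6, POSTN, RPL21, IGSF10, ATF5 and CTDSPL2. Their fitted log2 ratios ran from -0.31 (MCM6) to 1.17 (ATF5). The spread between fetuses is the error of the comparison, so few calls follow from this choice of genes. edgeR's test called 0 of the 8, with 2 at an unadjusted p under 0.05, and DESeq2 called 0. limma voom called 3, namely ATF5, BPHL and RPL21, and edgeR without robust estimation called ATF5 and BPHL. BPHL was also called without control 5 (adjusted p = 0.00549) and RPL21 without control 4 (adjusted p = 0.0493).

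POSTN, the matrix protein periostin, on chromosome 12 (24219116–24254425), had reads of 267 maternal and 151 paternal in control 1, 41 and 83 in control 2, 62 and 72 in control 3, 52 and 132 in control 4, and 202 and 110 in control 5. Its shares of 63.9%, 33.1%, 46.3%, 28.3% and 64.7% thus fell on both sides of 50%, and the fitted log2 ratio was -0.02 ± 0.39. CTSC, the protease cathepsin C, stood at 41.1%, 32.0%, 65.5%, 24.7% and 58.6%. The order of the fetuses differed from gene to gene. ATF5, a stress-related transcription factor gene, was highest in control 4 (85.4%) and lowest in control 2 (43.9%). BPHL, a hydrolase gene, was at 80.1% and 80.2% in controls 1 and 3 and at 35.7% in control 5, where it had 28 reads.

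**Figure D4:**
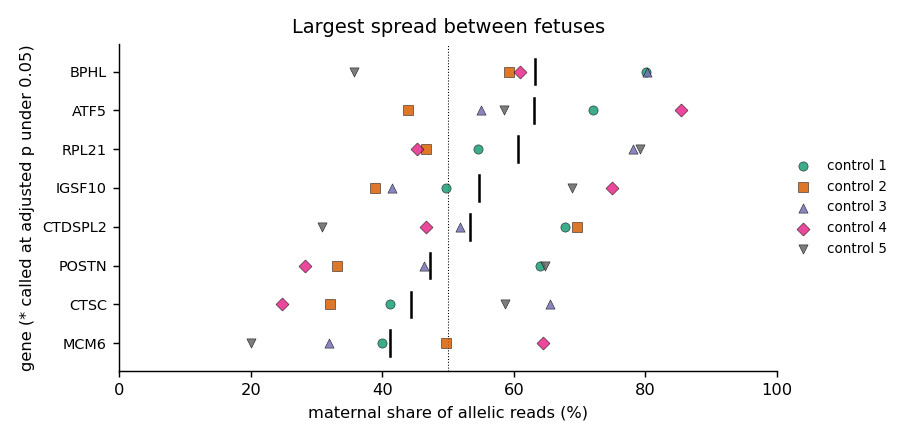
Maternal share of the allelic reads (x axis, percent) of the 8 genes with the largest SD between fetuses among those with 100 or more reads, with 1 symbol per control fetus and a bar at the mean. Each gene has fetuses on both sides of the dotted line at 50%.

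The sexes were compared by a test of allele by sex within the same model, over 2 females and 3 males. It called 0 genes (0.0% of 4641), with a smallest adjusted p of 0.236 by edgeR. Without adjustment, 228 genes (4.91%) had p under 0.05 by edgeR and 63 by DESeq2, which also called none. The count depended on single fetuses: 1 gene was called without control 1, 4 without control 3 and 1 without control 4. AOX1 had mean maternal shares of 34.0% in females and 22.7% in males, which did not pass the adjusted test (edgeR adjusted p = 0.352).

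Called genes lay on every autosome. The share of genes called ran from 5.26% on chromosome 13, with 19 genes compared, to 16.7% on chromosome 29, with 31 of 186. The median over chromosomes was 10.5%. The maternal copy had more calls on 20 chromosomes and the paternal copy on 8, with equal numbers on 1, where 59.3% of all calls were maternal. Chromosome 7 had 22 maternal and 7 paternal calls, chromosome 17 had 12 and 2, and chromosome 9, in spite of IGF2R, 2 and 6. The median log2 ratio of a chromosome lay between -0.09 on chromosome 9 and 0.08 on chromosome 6.

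Coverage was far less even than the calls. On chromosome 12, 64.1% of the genes at 1 CPM or more were compared, on chromosome 27 it was 63.1%, and on chromosome 24 it was 62.4%. The figure was 3.69% on chromosome 13, 9.14% on chromosome 19, 13.3% on chromosome 6 and 13.9% on chromosome 22. Of the collagen genes COL1A1, COL1A2 and COL3A1, which fibroblasts express strongly, 1 was compared, COL1A2, and it was not called. Calls on the thinly covered chromosomes therefore describe a small part of their expressed genes.

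**Figure D5:**
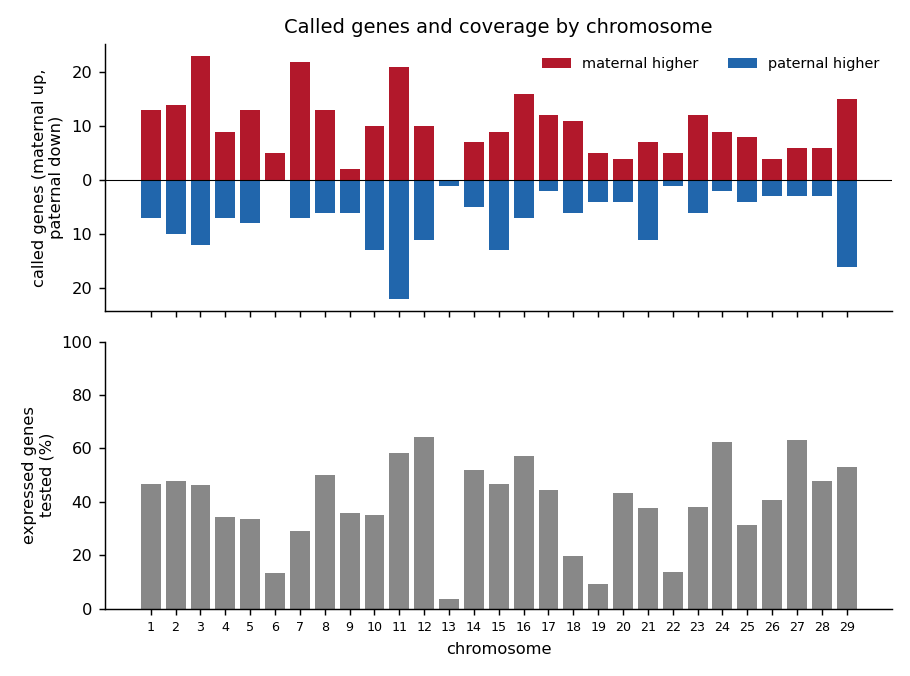
The upper panel gives the number of genes called with the maternal copy higher (upward bars) and the paternal copy higher (downward bars) on each autosome. The lower panel gives the percentage of genes at 1 CPM or more that had enough allelic reads, which ranges from 3.69% on chromosome 13 to 64.1% on chromosome 12.

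Neighbouring genes leaned the same way slightly more often than not. Of 4612 pairs of adjacent compared genes, 52.6% had ratios in the same direction, and of the 69 pairs in which both genes were called, 43 (62.3%) did. In 3 of those 69 pairs the annotations overlap on opposite strands (GPATCH4 with NAXE, WIPI1 with ARSG, LOC107131896 with ADAM12), and all 3 had the same direction. The allelic reads of GPATCH4 and LOC107131896 exceeded their expected counts. The sources used here do not give whether strand was used, so reads of such genes cannot be told apart. Of 1336 windows of 1 Mb with a compared gene, 360 held a called gene, 63 held 2 or more calls in 1 direction, 18 held 3 or more, and 43 held calls of both directions.

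The 3 windows with 4 calls in 1 direction were all maternal. Of 15 windows with 3 calls in 1 direction, 12 were maternal and 3 paternal, and the 2 with the fewest compared genes are described with the first 3. Of all calls 59.3% were maternal, or 47.7% with each allele's own read total as library size. The windows were picked for having the most calls, beside 10.6% of all genes called. The window from 21 to 22 Mb of chromosome 7 held LMNB2 (nuclear lamin, 57.6% ± 2.05), TIMM13 (mitochondrial import, 58.7% ± 4.68), OAZ1 (control of polyamines, 57.2% ± 2.04) and MOB3A (a kinase adaptor, 63.2% ± 5.23) among 12 compared genes. LMNB2 had reads at 119% of its expected counts. Without control 1, 2, 3 or 4 OAZ1 was not called (adjusted p of 0.0539 to 0.105).

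At 16 to 17 Mb of chromosome 23, 4 of 19 genes were called. CNPY3, a chaperone of Toll-like receptors (16555474–16563859), had the largest ratio of the window, at 67.3%, 64.5%, 67.6%, 73.7% and 78.1% (log2 1.19 ± 0.21, edgeR adjusted p = 0.000759). CUL7, a cullin whose loss restricts growth in humans (56.9% ± 2.72), PTK7, a Wnt co-receptor (58.0% ± 2.6), and DNPH1, a nucleotide hydrolase (64.3% ± 6.11), were the others. DNPH1 was not called without control 4 or 5 (0.0557 and 0.0549).

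The window from 103 to 104 Mb of chromosome 11 had 4 maternal calls and 1 paternal call (GBGT1, reads at 199% of expected counts) among 15 genes. The maternal genes were RALGDS (58.5% ± 6.81), LOC104975788 (61.3% ± 3.93, 115% of expected counts), UBAC1 (56.3% ± 4.51) and QSOX2 (59.3% ± 6.54). UBAC1 was not called without control 1, 4 or 5, and QSOX2 without control 1, 3 or 4 (adjusted p up to 0.16 and 0.0637). At 102 to 103 Mb of chromosome 8, SLC31A1, the copper importer (57.0% ± 4.62), PRPF4, a splicing factor (59.3% ± 4.66, 111% of expected counts), and HDHD3, a phosphatase-like protein (64.3% ± 4.41, 120%), were called among 7 genes.

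At 61 to 62 Mb of chromosome 19, ABCA6, WIPI1 and ARSG were called among 8 genes. ABCA6, a lipid transporter gene, was at 64.8%, 66.5%, 39.1%, 65.6% and 65.4%, with control 3 apart from the rest, and its adjusted p was 0.0548 without control 4. WIPI1, an autophagy protein gene (56.2% ± 4.42), was called only without control 2 when 1 library was left out (otherwise 0.0547 to 0.126). ARSG, a lysosomal sulfatase gene, overlaps WIPI1 and was at 62.3% ± 7.2.

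Over all compared genes together the copies were nearly balanced. The maternal share of the pooled reads was 50.74%, 50.77%, 50.55%, 50.67% and 50.78% in controls 1 to 5, or 50.7% ± 0.094 (SD, n = 5). All 5 lay above 50%, with an exact sign-flip permutation p of 0.062 (two-sided), the smallest that 5 libraries allow. The direction depended on the weighting. With each gene counted once, the mean share was 49.86% (exact sign-flip permutation p = 0.25), with control 2 and control 4 above 50% and the other three below. The 20 genes with the most reads held 30.6% of the pooled reads, and without them the share was 50.64%.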

How the data were processed

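Total RNA of 5 control fibroblast cultures was analysed. The submitters' processing notes name HISAT2 2.1.0, StringTie 2.1.4, Salmon 0.11.1, GATK, Picard 2.22.4, SAMtools 1.8, edgeR 3.36.0, Cufflinks 2.2.1 and FastQC 0.11.7, and the build ARS-UCD1.2. What each tool did, how reads were counted and assigned to an allele, and whether strand was used: not given in the sources used here. The table of whole read counts per gene and allele, per the file headers, was deposited unnormalised. The authors also deposited expected counts (estimated reads) per gene, which served here only for CPM and for comparison with the allelic reads. Another deposited table was not used. Symbols and coordinates come from the allelic table.

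Allelic counts were analysed in R 4.3.3 with edgeR 4.0.16, by the robust quasi-likelihood test with a term for each library and the allele. Both columns of a library had that library's total of allelic reads as library size, so a log2 ratio is one of raw reads, maternal over paternal. Standard errors were derived from the ratio and its F statistic. P-values were adjusted by Benjamini-Hochberg over all 4641 genes, and allele by sex was an added term. The alleles were paired by library: deviations of maternal and paternal counts from the allele means correlated at 0.875 to 0.925 within a library and at -0.416 to 0.0274 between libraries. The common biological coefficient of variation was 10.8%. The fit was tested on simulated data. Labels name separate fetuses, so replicates are animals with 1 culture and 1 library each.

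Named genes were taken by rule. These were the 12 largest ratios per direction among called genes with 100 or more reads, a plain symbol and 1 direction in all fetuses, and the 6 most deeply read per direction with a 2-fold ratio. Added were all compared genes of the imprinted lists, up to 3 called members of each other list by p (or the 1 with the smallest p), the 8 widest spreads, and the called genes of the 5 windows with the most calls in 1 direction, ties broken by fewer compared genes. TBC1D10A, LOC112447358, DNAJA4, HSP90AB1, DNAJC3, ADAMTS1, ADAM12, RPL8, RPLP2, GBGT1, COL1A2, GPATCH4, NAXE and LOC107131896 were chosen after their values were seen. Genes and lists were chosen with earlier results of these data known. Lists and positions are described by counts, with no test of a list. Alternatives were DESeq2 1.42.0, limma 3.58.1 (voom, and log2 ratios per library), other scalings and filters, no library term, and each library left out. The allelic reads carry no molecular identifiers, so intervals of single shares cover counting error only. Python 3.11.15 with matplotlib 3.10.9 drew the figures. One called gene of the lipid list is not reported here.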

Additional observations from a re-analysis of the deposited data

Results flagged for a closer look

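In 2 of the 118 named genes, 1 fetus stood apart from the other 4 by more than Dixon's 95% critical value. Chance passes that value in about 1 of 20 groups, so flags among this many genes can arise by chance. ABCA6 had a maternal share of 39.1% in control 3 and 64.8% to 66.5% in the others. The value in control 3 rests on 9 maternal and 14 paternal reads, with an exact Clopper-Pearson 95% interval of 19.7% to 61.5%. NAP1L4, of the imprinted region on chromosome 29, had 56.3% in control 1, from 426 reads with an interval of 51.5% to 61.1%, and 50.4% to 52.0% in the others.

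Genes outside chromosomes 1 to 29 were left out of the tests but also carried allelic reads. Genes placed on the X chromosome had 9704, 27485, 18037, 37647 and 18044 allelic reads in controls 1 to 5. Both alleles were seen in the 3 males as well as in the 2 females, and why was not tested. These 23 genes all lie between 132157002 and 139005970 of the X chromosome. CD99, a cell surface glycoprotein gene, gave most of these reads in each fetus, and WWC3 and MID1 had reads in both females and in none of the males. Genes on unplaced sequence had 36394 and 67179 reads in the female controls 1 and 2, and 1395, 3164 and 737 in the male controls 3, 4 and 5. Whether this difference follows sex was not tested.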

How the results depend on the processing

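The 491 calls became 327 with DESeq2 (320 of them shared; 113 paternal against 200), 512 with limma voom and 431 with limma on log2 ratios. Leaving out the pairing, with no replicate block for the library, gave 2 calls (2 maternal, 0 paternal; with a 2-fold ratio 2 and 0). Leaving out 1 library gave 348 to 390 calls, 224 to 241 maternal and 124 to 149 paternal, with fewer samples in each fit. With a 2-fold ratio these were 23 to 28 and 10 to 15, and for allele by sex 0 to 4. A minimum of 50 reads in every library left 13 maternal and 5 paternal genes with a 2-fold ratio, of 3007 tested. With no filter the paternal count was 22, of 5491 tested. The pooled maternal share of 50.7% was 50.68% to 50.74% without 1 library. Counted per gene it reversed to a mean of 49.86% or, added after seeing the data, a median of 49.93%. Other alternatives added then gave 484 calls without the listed imprinted genes, 488 without genes with a numbered suffix, and 386 of 4117 without genes whose allelic reads exceeded the expected counts or that had no matching entry there (32 genes). Of the 88 called named genes, 66 were called in all 5 fits with a library left out and 75 by DESeq2, and 0 changed sign in any alternative. DESeq2 gave no adjusted p for the called genes HOXC8, ACVRL1, COPG2 and DNPH1, which count here as not called by it. Of the 30 named genes not called, 7 (COMMD1, DHCR7, DVL1, IGSF10, POSTN, TRAPPC9 and ZFAT) changed sign in at least 1 alternative. Other than where fewer genes or samples entered, the cause was not tested.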
